A study of Caenorhabditis elegans with 22 samples.

Results

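The genes examined were dod-17, dod-19, dod-21, dod-22, dod-24, C32H11.4 and F08G5.6 of Caenorhabditis elegans, 7 of the 19598 genes in the deposited count table, taken by their symbols in that table. They had been grouped as defence genes with a CUB-like domain around dod-24, and they are treated here as chosen by their measured levels in wild-type animals under serotonin and loxapine in these same libraries. The values of N2 under either compound are therefore given below as a description, without a test. The responses of the 2 mutants, and the mutants against N2 in DMSO, were tested, although those values too were part of the table from which the genes were proposed.

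Genes with a CUB-like domain form a large family in nematodes, and many of its members code for secreted proteins made in the intestine. Several are switched on when the worm eats pathogenic bacteria, and part of that response runs through the p38 MAP kinase PMK-1. The dod genes take their name from being downstream of DAF-16, the FOXO transcription factor of the insulin pathway, and those described here belong to the class that is lower when DAF-16 is active. F08G5.6 is also named irg-4, for infection response gene, in the Ensembl annotation.

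RNA was sequenced from whole adults of N2, the wild type, and of 2 strains with an allele of a serotonin receptor gene, ser-5(vq1) and ser-7(vq2). All animals were fed OP50 bacteria killed by X-ray, in 96-well plates, and all were sterilised with 0.12 mM FUDR. From day 1 of adulthood they received 5 mM serotonin dissolved in water, 50 µM loxapine dissolved in DMSO, or DMSO under 0.3%, and they were harvested 72 h later. The groups were N2 with DMSO (5 libraries), N2 with serotonin (3), N2 with loxapine (3), ser-7(vq2) with DMSO (3), ser-7(vq2) with serotonin (3), ser-5(vq1) with DMSO (3) and ser-5(vq1) with loxapine (2). No group received water alone, so the effect of serotonin and the change of solvent cannot be told apart. The labels do not describe the lesion of either allele. Nothing in them says that libraries of a group came from separate cultures, and p-values then measure the spread between these libraries only.

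Total counts per library lay between 25652111 and 39765014. The ser-7 gene had 0 to 1 counts in each ser-7(vq2) library and 72 to 106 in each N2 library with DMSO, and the ser-5 gene had 5 to 21 counts in each ser-5(vq1) library and 47 to 78 in those controls. Library numbers in the labels run in 3 series, 1 to 8, 13 to 20 and 25 to 31, and each series holds every group except that 25 to 31 holds no ser-5(vq1) library with loxapine. Replicates 2 and 5 of N2 with DMSO, and replicates 3 and 6, resembled each other more closely than any other libraries of one group (chi-square per degree of freedom 3.86 to 4.94, against 11.9 to 140.0 in other pairs). They still differed by more than sampling noise and were kept as separate libraries. That difference cannot show whether they came from separate cultures, and a fit with each pair summed is given below.

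The label "around dod-24" held for part of the set. On chromosome IV of WBcel235 in Ensembl release 115, C32H11.4 lies at 12921264 to 12923296 on the plus strand, dod-21 at 12936738 to 12937988 on the plus strand, dod-24 at 12940106 to 12941354 on the minus strand, dod-22 at 12965374 to 12967392 on the plus strand and dod-17 at 12976303 to 12978343 on the plus strand. These 5 genes fall within 57.1 kb, among 13 other protein-coding genes of the table. F08G5.6 lies on the same chromosome at 12435833 to 12438236 on the plus strand, with a gap of 483 kb to C32H11.4, and dod-19 lies on chromosome V at 411782 to 414759 on the minus strand. The annotation lists no gene of the table that overlaps any of the 7.

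The genes also fell into different gene structures. C32H11.4, dod-22 and dod-17 each have 8 exons and a coding length of 1038, 1026 and 1023 bases. Within the 57.1 kb there are 9 such genes, each with 8 exons and 1014 to 1038 coding bases. F08G5.6 has 7 exons and 1035 coding bases. The genes dod-21 and dod-24 have 3 exons and 1083 coding bases each and lie on opposite strands with a gap of 2.12 kb, flanking C32H11.11, a gene with 0 counts in every library. The structure of dod-19 was unlike the rest, with 6 exons and 1218 coding bases. Protein domains were not examined here, and whether dod-21 and dod-24 are alike enough to share reads was not examined either.

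Levels are in CPM, the count relative to a library total scaled by the TMM method. Set per kilobase of coding sequence, so that genes can be compared, the mean level over the 22 libraries was 318.9 CPM per kb for dod-19, 60.7 for dod-24, 21.1 for dod-22, 14.9 for C32H11.4, 12.0 for F08G5.6, 1.65 for dod-17 and 0.0278 for dod-21. The most abundant gene of the set was therefore the one on another chromosome. Between its lowest and its highest library, F08G5.6 varied from 2.15 to 46.1 CPM (21.4-fold), dod-24 from 13.9 to 229.8 CPM, and C32H11.4 from 3.39 to 41.7 CPM (12.3-fold). The spans of dod-17, dod-22 and dod-19 were narrower, at 4.96-fold, 3.53-fold and 3.24-fold. In these bulk samples fewer cells of a type and less RNA per cell cannot be told apart.

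**Figure D1:**
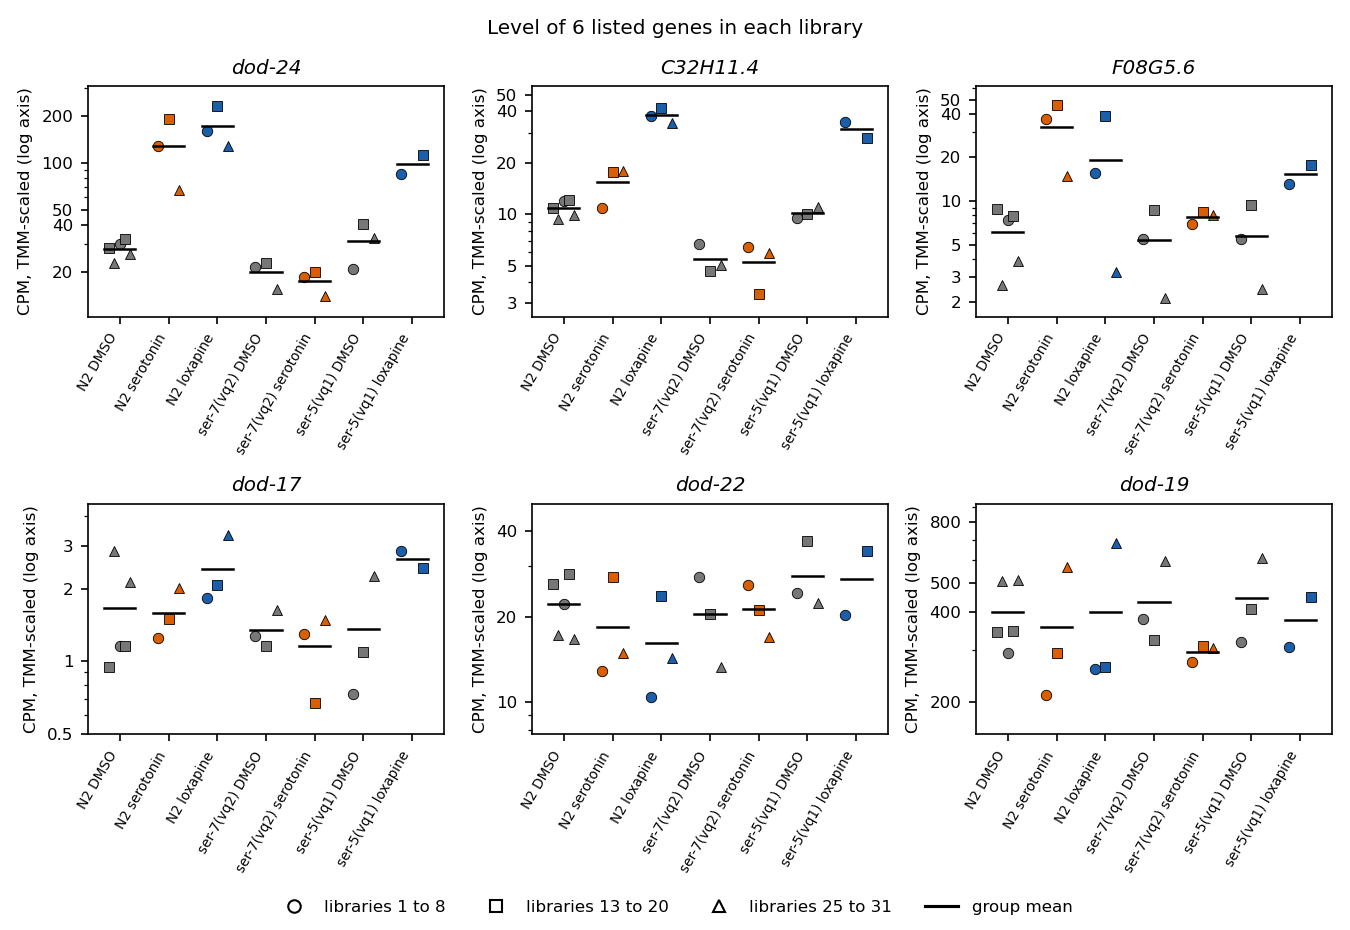
Level of 6 of the 7 genes in each of the 22 libraries, in TMM-scaled CPM on a log axis, by genotype and treatment. Symbols show the library series and lines the group mean. Both N2 groups with a compound lie above N2 with DMSO for dod-24, from 66.6 CPM up against at most 32.5, and the ser-7(vq2) libraries with serotonin lie between 13.9 and 19.9 CPM.

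The gene dod-24 was measured at 28.6, 22.9, 30.1, 32.5 and 26.1 CPM in N2 with DMSO (replicates 2 to 6, mean 28.0 ± 3.70 SD, n = 5). With serotonin the N2 libraries held 127, 189 and 66.6 CPM (128 ± 61.3, n = 3), and with loxapine 161, 229.8 and 128 CPM (173 ± 51.9, n = 3). Every N2 library with a compound lay above every N2 control, and the 2 compounds overlapped each other. In ser-7(vq2) the levels were 21.4, 22.7 and 15.5 CPM with DMSO (19.9 ± 3.83) and 18.4, 19.9 and 13.9 CPM with serotonin (17.4 ± 3.08), so these 2 groups overlapped. In ser-5(vq1) they were 20.96, 40.4 and 32.9 CPM with DMSO (31.4 ± 9.78) and 84.7 and 113 CPM with loxapine (98.8 ± 19.9, n = 2), and these 2 groups did not overlap. By mean level the order was N2 with loxapine, N2 with serotonin, ser-5(vq1) with loxapine, ser-5(vq1) with DMSO, N2 with DMSO, ser-7(vq2) with DMSO and ser-7(vq2) with serotonin. Neighbours in that order overlapped except at 2 steps, from ser-5(vq1) with loxapine to ser-5(vq1) with DMSO and from N2 with DMSO to ser-7(vq2) with DMSO. The latter step was narrow, 22.87 against 22.71 CPM at the closest, and without TMM scaling these 2 groups overlapped.

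C32H11.4, a gene named only by its sequence name, had a smaller spread in N2, relative to its mean, than dod-24 or F08G5.6. In N2 with DMSO it stood at 10.9, 9.35, 11.9, 12.1 and 9.90 CPM (10.8 ± 1.19, n = 5). With serotonin it stood at 10.9, 17.6 and 17.9 CPM (15.5 ± 3.96) and with loxapine at 37.8, 41.7 and 34.1 CPM (37.9 ± 3.81). The loxapine libraries lay above all other N2 libraries, while replicate 1 with serotonin lay inside the range of the controls. The ser-7(vq2) libraries held 6.69, 4.64 and 5.05 CPM with DMSO (5.46 ± 1.08) and 6.46, 3.39 and 5.90 CPM with serotonin (5.25 ± 1.63), all below every library of the other strains. The ser-5(vq1) libraries held 9.46, 9.97 and 11.05 CPM with DMSO (10.2 ± 0.811) and 34.9 and 28.1 CPM with loxapine (31.5 ± 4.82). In the order of mean levels the breaks without overlap fell between ser-5(vq1) with loxapine and N2 with serotonin, and between ser-5(vq1) with DMSO and ser-7(vq2) with DMSO.

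F08G5.6 varied widely between libraries of most groups. It was measured at 8.75, 2.62, 7.40, 7.87 and 3.88 CPM in N2 with DMSO (6.10 ± 2.69, n = 5), at 36.8, 46.1 and 15.0 CPM with serotonin (32.6 ± 16.0) and at 15.7, 38.6 and 3.24 CPM with loxapine (19.2 ± 17.9). All serotonin libraries lay above the N2 controls, but replicate 3 with loxapine lay within them. In ser-7(vq2) the levels were 5.45, 8.63 and 2.15 CPM with DMSO (5.41 ± 3.24) and 6.92, 8.40 and 7.96 CPM with serotonin (7.76 ± 0.760). In ser-5(vq1) they were 5.47, 9.32 and 2.47 CPM with DMSO (5.75 ± 3.44) and 13.1 and 17.6 CPM with loxapine (15.3 ± 3.24). In the order of mean levels N2 with serotonin, N2 with loxapine and ser-5(vq1) with loxapine came first, and a break without overlap separated the last of these from the next group, ser-7(vq2) with serotonin.

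For each of the other 3 genes that could be tested, all neighbouring groups in the order of levels overlapped. Groups further apart in that order did not always overlap. In ser-5(vq1), dod-17 was at least 2.43 CPM with loxapine and at most 2.27 CPM with DMSO. In ser-7(vq2), dod-19 was at most 308 CPM with serotonin and at least 323 CPM with DMSO. The gene dod-17 lay between 0.672 and 3.33 CPM, and its group means ran from 1.15 ± 0.426 CPM in ser-7(vq2) with serotonin to 2.65 ± 0.317 CPM in ser-5(vq1) with loxapine. The gene dod-22 lay between 10.4 and 36.8 CPM, with group means from 16.1 ± 6.75 CPM in N2 with loxapine to 27.8 ± 7.90 CPM in ser-5(vq1) with DMSO. The gene dod-19 lay between 210.5 and 682.5 CPM, with group means from 294 ± 19.8 CPM in ser-7(vq2) with serotonin to 445 ± 147 CPM in ser-5(vq1) with DMSO.

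The 7th gene, dod-21, was close to the limit of detection. It had 22 counts in all, spread over 8 of the 22 libraries with at most 6 in any one, and it did not pass the filter on low counts. No count fell in ser-7(vq2) with serotonin or in ser-5(vq1) with loxapine, which allows levels of up to 0.0301 and 0.0468 CPM (3 counts over the group, counting error only). Its counts came to 0.0450% of those of dod-24.

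In N2, the higher level of dod-24 under serotonin corresponded to a fitted log2 difference of 2.19 ± 0.27 (SE). F08G5.6 gave 2.42 ± 0.61 and C32H11.4 0.51 ± 0.19, whereas dod-17, dod-19 and dod-22 gave -0.06, -0.17 and -0.26. As a description fixed by the choice of the genes, 3 of the 6 stood past the threshold used for the whole table, all higher, and 20.4% of the 16431 genes tested did so. Of these 6 genes, 2 had no overlap between treated and control libraries with the treated ones higher (background 17.1%). Nothing is read from these counts. The median difference over the 6 genes was 0.22, beside -0.12 over all genes tested. Within the library series, dod-24 was 4.23, 6.2 and 2.72 times as high as its controls (series 1 to 8, 13 to 20 and 25 to 31), and F08G5.6 was 4.98, 5.55 and 4.61 times as high. The same ratios for C32H11.4 were 0.917, 1.54 and 1.85, so the first series showed no higher level with serotonin.

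Loxapine in N2 gave fitted log2 differences of 2.63 ± 0.27 for dod-24, 1.81 ± 0.18 for C32H11.4 and 1.65 ± 0.61 for F08G5.6. Those of dod-17, dod-19 and dod-22 were 0.55, 0.00 and -0.45. Here too the choice of the genes fixed the count, from which nothing is read. Past the whole-table threshold stood 2 of the 6 genes, both higher and both without overlap, and over all genes 10.5% were higher and 15.7% were higher without overlap. The median over the 6 genes was 1.09 and that over all genes -0.07. Within the series dod-24 was 5.34, 7.53 and 5.24 times and C32H11.4 3.19, 3.64 and 3.55 times as high as the controls, whereas F08G5.6 was 2.12, 4.64 and 0.997 times as high. Both compounds were compared with the same 5 controls, so these differences are not independent of each other.

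In ser-7(vq2) no gene of the set passed the threshold with serotonin (6 tested in edgeR, none under an unadjusted p of 0.05, and none in DESeq2). This matched the table as a whole, in which 0% of the genes tested were called in edgeR (643 genes under an unadjusted p of 0.05) and 0 in DESeq2. The fitted log2 difference was -0.19 for dod-24, with a 95% interval of -0.86 to 0.47, and -0.06 for C32H11.4, with an interval of -0.51 to 0.40. For F08G5.6 it was 0.51, with an interval of -0.99 to 2.01. The gene dod-19 was the one member whose serotonin libraries all lay below the DMSO libraries, at 272, 308 and 303 CPM against 381, 323 and 593 CPM, where 4.98% of all genes showed this. Its log2 difference of -0.55 did not pass the test. Within the series the ratio of dod-24 was 0.859, 0.874 and 0.897.

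The difference in the serotonin response, ser-7(vq2) minus N2, was -2.38 ± 0.42 on the log2 scale for dod-24, -1.91 ± 0.94 for F08G5.6 and -0.57 ± 0.29 for C32H11.4. For dod-17, dod-19 and dod-22 it was -0.16 ± 0.57, -0.39 ± 0.54 and 0.32 ± 0.47. Since the N2 values chose the genes, these differences are a description. The median over the 6 genes was -0.48, beside 0.11 over all genes.

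**Figure D2:**
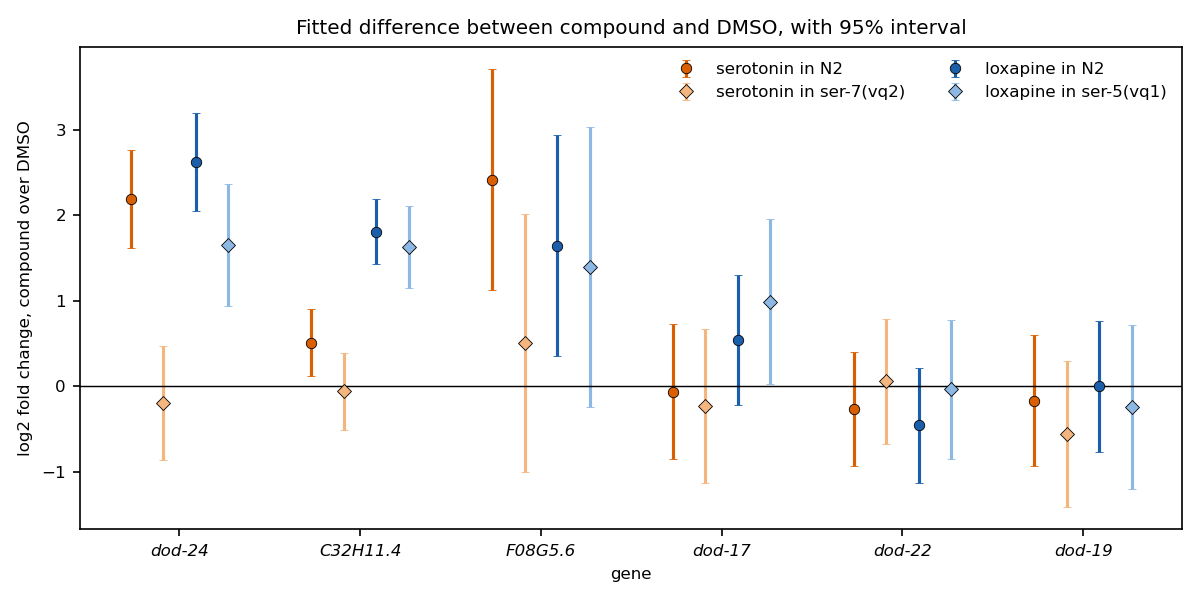
Fitted log2 fold change of each compound over DMSO, in N2 (circles) and in the mutant that received it (diamonds), for the 6 genes tested. Bars are 95% intervals from the edgeR fit. For dod-24 the serotonin value is 2.19 in N2 and -0.19 in ser-7(vq2), and the loxapine value is 2.63 in N2 and 1.65 in ser-5(vq1).

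In ser-5(vq1), C32H11.4 rose with loxapine. The difference was 1.63 ± 0.23 on the log2 scale, a fold of 3.10 (95% interval 2.22 to 4.33, edgeR adjusted p = 0.00165), with both loxapine libraries above all 3 controls. It was 1 of 8 genes called in this comparison, all higher, which is 0.0487% of the genes tested. The other 7 were cyp-35A1, cyp-35B1, cyp-35B2, cyp-35B3 and cyp-33C6, which code for cytochrome P450 enzymes, pgp-13, which codes for a P-glycoprotein transporter, and C01G12.5. They were listed because they are all of the genes called, after their values were seen. C32H11.4 ranked 6th of the 8 by p. These libraries were part of the table from which the genes were proposed, so the call lends that choice no independent support. Within the series C32H11.4 was 3.69 and 2.81 times as high as the control. The call did not survive leaving out replicate 1 with loxapine, which leaves a single treated library (edgeR adjusted p = 0.106, range over the alternatives 1.04e-07 to 0.106).

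The gene dod-24 had nearly the same fitted difference in ser-5(vq1), 1.65 ± 0.34 or a fold of 3.14 (95% interval 1.91 to 5.17), but did not pass the threshold (edgeR adjusted p = 0.228). It was higher in 2 of 2 libraries, 4.04 and 2.80 times its control within the series. DESeq2 called it (adjusted p = 0.000448), as did the fit with the library series as a block (0.0144), and its range over the alternatives was 0.000448 to 1. F08G5.6 gave 1.40 ± 0.77 with ratios of 2.39 and 1.89 within the series, and dod-17 gave 0.99 ± 0.46 with ratios of 3.94 and 2.23. Neither passed the threshold. In all, 4 of the 6 genes had both loxapine libraries above all controls, where 8.03% of all genes did. That count carries the same limit, as these values were in the table from which the genes were proposed. The median over the 6 genes was 1.195 (beside 0.00 over all genes). The response in ser-5(vq1) minus that in N2 was -0.97 ± 0.44 for dod-24, -0.18 ± 0.30 for C32H11.4 and -0.25 ± 1.00 for F08G5.6, again as a description.

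With DMSO alone, C32H11.4 was lower in ser-7(vq2) than in N2. The log2 difference was -0.98 ± 0.20, a fold of 0.505 (95% interval 0.380 to 0.672, edgeR adjusted p = 0.0191), and the 3 mutant libraries lay below all 5 controls. This was 1 of 6 genes called, where 0.755% of all genes were lower. As these values too were in the table from which the genes were proposed, the call lends that choice no independent support. The ratio of C32H11.4 within the series was 0.564, 0.405 and 0.525. The call ended with the replicate number as a block (edgeR adjusted p = 0.122), with the near-duplicate controls summed (0.100), without replicate 1 or 2 of ser-7(vq2) with DMSO (0.0758 and 0.117) and under 3 other subsets of libraries (0.0767 to 0.344). In these 7 alternatives the log2 difference lay between -1.16 and -0.88. The gene dod-24 was also lower in every ser-7(vq2) library than in any N2 control, where 6.63% of genes were. The margin was narrow, 22.71 CPM in replicate 2 of ser-7(vq2) against 22.87 CPM in replicate 3 of N2. Without TMM scaling these 2 libraries stood at 24.09 and 22.72 CPM, so the groups then overlapped. The log2 difference of dod-24 was -0.49 ± 0.28 and did not pass the test (edgeR adjusted p = 0.448). In ser-5(vq1) with DMSO no gene of the set differed from N2 by the test (edgeR, none under an unadjusted p of 0.05, none in DESeq2, background 0.00609%). The log2 difference there was 0.16 for dod-24 (95% interval -0.42 to 0.75) and -0.09 for C32H11.4 (-0.49 to 0.30).

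The genes also differed in how they varied between library series, apart from strain and treatment. Over the 6 groups found in all 3 series, the geometric mean of dod-19 was 284, 320.3 and 528 CPM in series 1 to 8, 13 to 20 and 25 to 31, and the last was the highest in 5 of 6 groups. The gene dod-17, with 1.22, 1.18 and 2.13 CPM, was highest in the last series in 6 of 6 groups. F08G5.6 ran the other way, with 9.79, 14.7 and 4.34 CPM. It was highest in series 13 to 20 in 6 of 6 groups and lowest in series 25 to 31 in 5 of 6. The gene dod-24 did so as well, with 41.5, 53.8 and 33.8 CPM, and dod-22 gave 19.2, 25.6 and 16.21 CPM. C32H11.4 was nearly level, at 11.2, 10.5 and 11.2 CPM. Outside N2 with DMSO, replicates 1, 2 and 3 fall in series 1 to 8, 13 to 20 and 25 to 31. The series there follow the replicate number, which is a batch tag in the labels. What the batches differ in is not given.

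Pearson correlations of log2 CPM over the 22 libraries, which share groups and series, describe the same pattern. The gene dod-24 had r = 0.862 with C32H11.4 and 0.708 with F08G5.6. Both values include the N2 groups with a compound, whose levels are treated here as having chosen the genes, and are a description only. After subtraction of the group means, r was 0.007 for dod-24 with C32H11.4 and 0.689 for dod-24 with F08G5.6. The likeness of dod-24 to C32H11.4 thus lay between groups, and that to F08G5.6 also lay between libraries of one group. Within groups dod-22 had r = 0.686 with dod-24 although it was -0.118 over all libraries. The genes dod-17 and dod-19 had r = 0.699 with each other within groups, and F08G5.6 had r = -0.700 with dod-17 and -0.823 with dod-19.

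**Figure D3:**
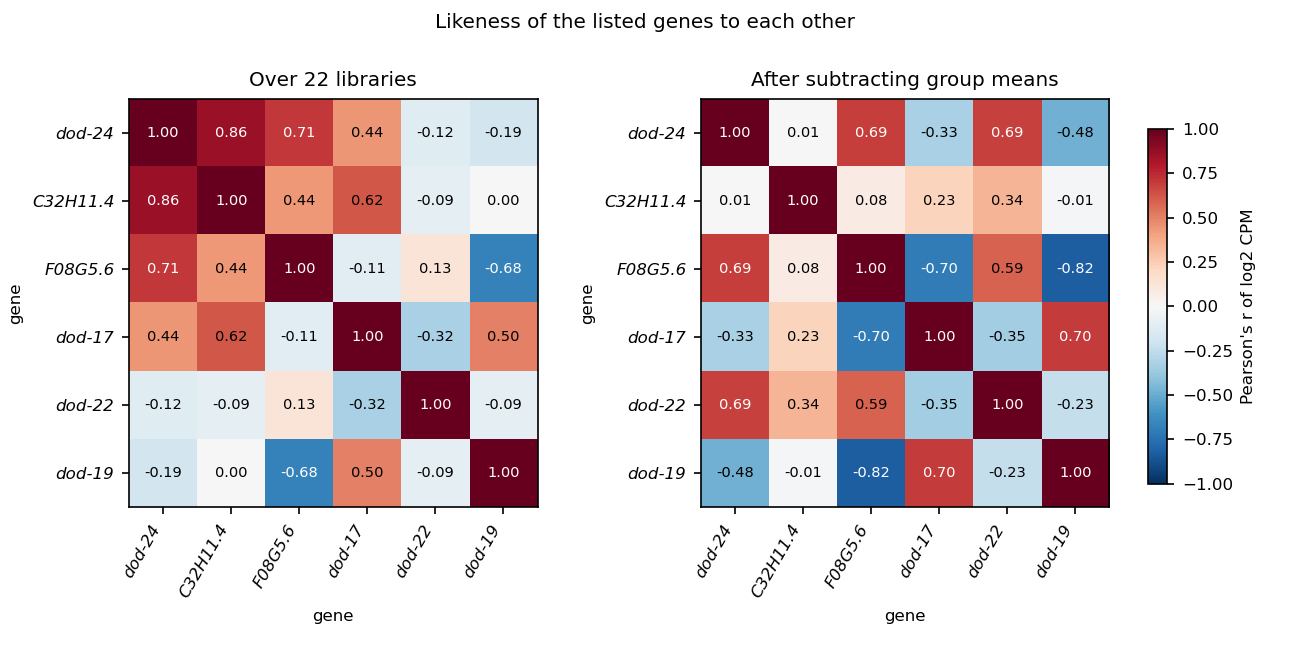
Pearson's r of log2 CPM between the 6 genes tested, over all 22 libraries (left) and after subtracting each group's mean (right). The pair dod-24 and C32H11.4 goes from 0.86 to 0.01, while F08G5.6 and dod-19 go from -0.68 to -0.82.

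Outside the set, each gene was compared with 10466 genes of at least 2 on the mean log2 CPM scale. The 3 most like dod-24 over the 22 libraries were cyp-35A2, a cytochrome P450 gene (r = 0.936), asp-14, an aspartyl protease gene (0.923), and F32A5.3 (0.911). After subtraction of the group means, their r with dod-24 was 0.562, 0.684 and 0.229. Those most like C32H11.4 were ugt-43 and ugt-22, which code for UDP-glucuronosyltransferases (0.909 and 0.904), and Y4C6B.5 (0.897). Within groups these values were 0.738, 0.562 and 0.764. For F08G5.6 they were T24B8.5, a gene used as a reporter of PMK-1 signalling (0.862), cyp-35C1 (0.832) and asm-3, an acid sphingomyelinase gene (0.818). Their values within groups were 0.925, 0.78 and 0.909. These lists of 3 for dod-24, C32H11.4 and F08G5.6 shared no gene. Lists this short cannot show whether the genes vary apart. Between dod-24 and C32H11.4, r was 0.862 over the 22 libraries and 0.007 after subtraction of the group means. The former value includes the N2 groups whose levels are treated here as having chosen the genes, so nothing is read from it. The 3 most like dod-19 were dct-17 (0.942), ZK6.11 (0.933) and C49C8.5 (0.908). ZK6.11 is named irg-8 in Ensembl and lies next to dod-19 on chromosome V, at 415870 to 417706. For dod-22 they were F48E3.2, Y105C5A.8 and cnc-4, an antimicrobial caenacin gene (0.804 to 0.781), and for dod-17 gst-26, a glutathione S-transferase gene, Y54G2A.45 and C34H4.2 (0.805 to 0.800).

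Genes beside the members were counted next. Of 46 other genes that start within 20 kb of one of the 7, 29 were tested. With serotonin in N2 4 of them were higher and 4 lower, and with loxapine in N2 6 were higher and 0 lower (9 under an unadjusted p of 0.05, and 1 lower in DESeq2). Over all genes 20.4% were higher and 16.8% lower with serotonin, and 10.5% and 8.38% with loxapine. Their median log2 differences were -0.22 and 0.16, beside -0.12 and -0.07 over all genes. None passed in ser-7(vq2) with serotonin (1 under an unadjusted p of 0.05) or in ser-5(vq1) with loxapine (2), and none in DESeq2. Of the 13 other genes between C32H11.4 and dod-17, 5 were tested and 8 missed the filter. With serotonin in N2 1 of the 5 was higher and 1 lower, and with loxapine in N2 1 was higher and 0 lower (edgeR, 1 under an unadjusted p of 0.05, 0 lower in DESeq2). The genes called were named after their values were seen. C32H11.5 was lower with serotonin by -2.12 (SE 0.51, edgeR adjusted p = 0.00291). F55G11.2 has the 8 exons and 1023 coding bases of dod-17 and was higher with loxapine in N2 by 1.25 (SE 0.29, edgeR adjusted p = 0.00833) and with serotonin by 0.82 (SE 0.30, adjusted p = 0.0354). In ser-5(vq1) with loxapine its difference was 1.26, and in ser-7(vq2) with serotonin it was -0.48, and neither passed the threshold.

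**Figure D4:**
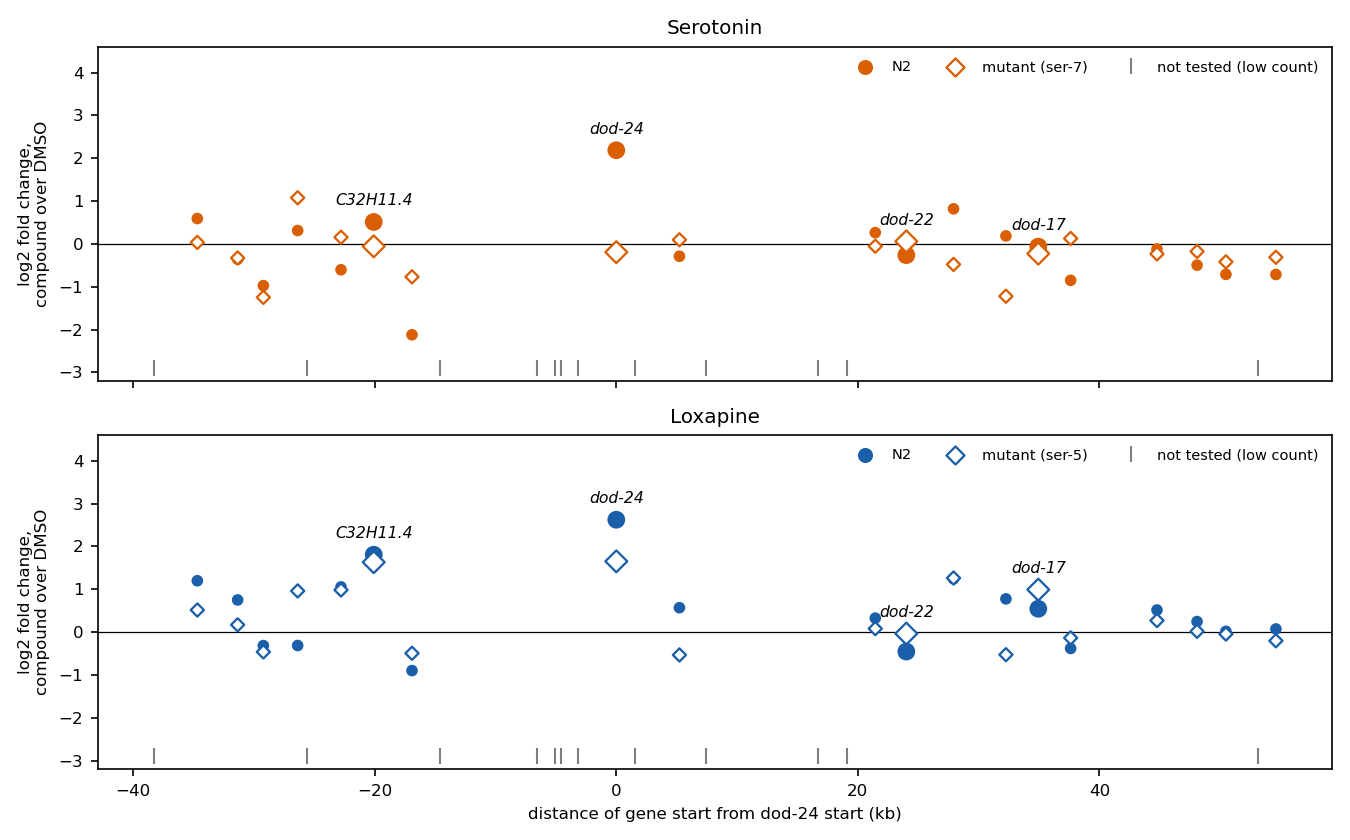
Fitted log2 fold change of each tested gene near dod-24 against the distance of its start from that of dod-24, in kb, for serotonin (top) and loxapine (bottom). Filled circles are N2, open diamonds the mutant, large symbols the listed genes, and ticks mark genes below the count filter. dod-24 has the highest N2 value in both panels, 2.19 and 2.63, and no other plotted gene lies above 2.

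Genes of the pathways named in the background were also counted, and each count is to be read against the share of all genes, 20.4% higher and 16.8% lower with serotonin in N2 and 10.5% and 8.38% with loxapine. The 6 tested genes of the PMK-1 pathway were tir-1, nsy-1, sek-1, pmk-1, atf-7 and vhp-1. None passed with serotonin in N2 (edgeR, 2 under an unadjusted p of 0.05, none in DESeq2). With loxapine in N2 2 of them were lower, the adaptor gene tir-1 by -0.57 ± 0.15 and the kinase gene sek-1 by -0.64 ± 0.16 (edgeR adjusted p = 0.0149 and 0.0103). The kinase gene pmk-1 gave -0.14 and -0.09. Of 16 other regulators of defence, 1 was higher and 8 were lower with serotonin in N2 and 2 were lower with loxapine. The transcription factor genes zip-2 and hlh-30 were lower with both. Their serotonin differences were -0.56 ± 0.17 and -0.55 ± 0.20, and their loxapine differences -0.68 ± 0.17 and -0.70 ± 0.20 (edgeR adjusted p = 0.0116 to 0.0371).

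Against the same shares (20.4% higher and 16.8% lower with serotonin, 10.5% and 8.38% with loxapine), of 14 other infection response genes 1 was higher and 2 lower with serotonin in N2, and 0 were higher and 1 lower with loxapine (edgeR, 4 under an unadjusted p of 0.05, and 1 higher and 2 lower in DESeq2). The one that rose was mul-1, a mucin-like gene, by 1.00 ± 0.24 with serotonin (edgeR adjusted p = 0.00274), while irg-1 and irg-2 were lower by -0.46 ± 0.14 and -0.55 ± 0.17 (0.0116 and 0.0145). T24B8.5, the gene most like F08G5.6, gave 0.99 ± 0.42 with serotonin and did not pass (edgeR adjusted p = 0.0740). Of the 5 other dod genes tested, dod-18 was higher with serotonin by 0.62 ± 0.12 (edgeR adjusted p = 0.000451). The gene dod-6 was lower with serotonin and with loxapine, by -0.84 ± 0.12 and -0.56 ± 0.12 (6.52e-05 and 0.00566). Of 7 insulin pathway genes, 4 were higher and 1 lower with serotonin in N2, among them the kinase gene akt-1 by 0.44 ± 0.09 (edgeR adjusted p = 0.000549). With loxapine 2 were higher and 1 lower, the insulin receptor gene daf-2 by -0.70 ± 0.16 (edgeR adjusted p = 0.0067). Of 9 tested genes that DAF-16 raises, 2 were lower with serotonin in N2, the catalase genes ctl-1 and ctl-2 by -0.83 ± 0.13 and -0.63 ± 0.08 (edgeR adjusted p = 1e-04 and 1.35e-05), and 1 was lower with loxapine. In the mutants under either compound no gene of these 6 lists passed the threshold in edgeR or DESeq2, with 0 to 5 genes of a list under an unadjusted p of 0.05.

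Markers of the main tissues also differed in N2 under the compounds, where 20.4% of all genes were higher and 16.8% lower with serotonin and 10.5% and 8.38% with loxapine. All 12 germline markers were higher with serotonin and 8 with loxapine. Their summed level was 3170 to 3900 CPM in N2 with DMSO, 4620 to 7130 CPM with serotonin and 4320 to 4870 CPM with loxapine. Of 10 body wall muscle markers, 9 were lower with either compound, with sums of 4830 to 5750, 2610 to 3210 and 2630 to 3560 CPM in the same 3 groups. Of 12 neuronal markers, 11 were lower with serotonin and 6 with loxapine. Of 6 pharyngeal muscle markers, 5 and 3 were lower, and of 7 hypodermal markers 2 and 3. Of 14 markers of the intestine, the tissue in which many genes of this family are known to be active, 3 were higher and 3 lower with serotonin and none passed with loxapine (edgeR, 4 under an unadjusted p of 0.05, none in DESeq2). Their sums were 2270 to 2970, 2270 to 5980 and 2090 to 3130 CPM, and no marker of any list was at 0 in any group. In ser-7(vq2) with serotonin and in ser-5(vq1) with loxapine no marker of these 6 lists passed in edgeR or DESeq2, with 0 to 2 of a list under an unadjusted p of 0.05. In ser-7(vq2) with DMSO 2 of the 12 germline markers were lower than in N2, where 0.755% of all genes were. In ser-5(vq1) with DMSO 0 passed (edgeR, 5 under an unadjusted p of 0.05, 0 in DESeq2). All 12 log2 differences lay below 0 in both strains, the highest being -0.082 in ser-7(vq2) and -0.078 in ser-5(vq1). The summed germline level with DMSO was 2500 to 3020 CPM in ser-7(vq2) and 2740 to 3000 CPM in ser-5(vq1). The part of these tissue shifts in the levels of dod-24, C32H11.4 and F08G5.6 in N2, and of C32H11.4 in ser-7(vq2) with DMSO, was not tested.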

How the data were processed

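RNA-seq was done on total RNA of whole animals with reads of 100 nucleotides from single-read runs, per the labels' protocols. In the table that the authors deposited, values are integer counts of reads per gene, with no scaling, for 19598 genes and 22 libraries. For the aligner, the counting program, the genome build, the use of strand and the treatment of reads that match several genes, the entry is: not given in the sources used here. Of the symbols, 11 had turned into dates and were restored through their identifiers. Positions are from the Ensembl annotation of WBcel235, which held all 19598 identifiers.

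Groups were taken from genotype and treatment in the labels. Counts were analysed in R 4.3.3 with edgeR 4.0.16. Genes were filtered (minimum count 10, minimum total 15, leaving 16431), libraries were TMM-scaled, and the robust quasi-likelihood fit had a mean for each of the 7 groups. Benjamini-Hochberg adjustment was made over all genes tested, and the threshold was 0.05. A standard error is the log2 difference divided by the root of F. Levels are CPM computed from the deposited counts and the scaled totals, with the SD between libraries, and likeness used log2 CPM with a prior count of 2. The genes, the lists and the tests were chosen with earlier results of these data known. Named genes beyond the 7 are the 3 most like each and examples from the lists, and those among the neighbours were named after their values were seen. A list of genes chosen by protein similarity could not be made, and no sequence was used here.

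Alternative settings were DESeq2 1.42.0, RLE size factors, no filter, a fit of the compared groups only, the replicate number or the library series as a block, subsets of the controls of N2, and omission of each library in turn. The replicate number is a batch tag in the labels and pairs libraries by the labels. Deviations from the group means correlated between -0.0959 and 0.648 (median 0.230) over the 51 pairs of libraries that share a tag across groups, with 38 over 0.1. For N2 with DMSO, 3 libraries have a tag of their own and get no weight under the block. The pipeline was tested on simulated data.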

Additional observations from a re-analysis of the deposited data

Results flagged for a closer look

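With serotonin, the levels of dod-24 lay on different sides of the control mean in the 2 strains. In N2 the fitted log2 difference was 2.19, and 3 of 3 serotonin libraries lay above the mean of their controls. In ser-7(vq2) 0 of 3 did, but replicate 2 lay at 19.85 CPM against a control mean of 19.88 CPM. The groups of ser-7(vq2) overlapped, with a fitted difference of -0.19 (95% interval -0.86 to 0.47). The difference between the strains was not tested here, because the N2 values had served to choose the gene. In groups of 4 to 10 libraries, which here means N2 with DMSO, no gene of the set had a library standing apart by Dixon's criterion. The criterion takes libraries as independent, but replicates 2 and 5, and replicates 3 and 6, of this group were near-duplicates. A library with so close a partner could hardly stand apart, so nothing is read from this.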

How the results depend on the processing

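Each result was recomputed under 32 alternatives, 1 of them, without the libraries numbered 25 to 31, added after the data were seen. For serotonin in ser-7(vq2) and for ser-5(vq1) against N2 in DMSO, 0 genes of the set were called in each of the 32. The count for loxapine in ser-5(vq1), 1 as reported, was 2 with DESeq2, 2 with the library series block and 0 to 2 when 1 library was left out. It was 0 without replicate 1 of ser-5(vq1) with loxapine, and 2 (dod-24 at an edgeR adjusted p of 0.0362) without replicate 3 of N2 with serotonin, which enters only through the shared spread. The count for ser-7(vq2) against N2 in DMSO, 1 as reported, was 0 with the replicate block (C32H11.4 at an edgeR adjusted p of 0.122), with N2 controls 2 and 3 alone (0.344), with N2 controls 4 to 6 alone (0.0942), with the near-duplicate libraries summed (0.100) and without the libraries numbered 25 to 31 (0.0767). It was 0 to 1 when 1 library was left out, and 0 without replicate 1 or 2 of ser-7(vq2) with DMSO. In that comparison the replicate block called 3 genes of the whole table against 197 as reported, and the alternatives gave 1 to 848. The replicate block changed no other call of a listed gene.

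The median over the 6 genes for loxapine in N2, 1.09 as reported, ran from 0.64 to 1.24 when 1 library was left out. That of the serotonin response in ser-7(vq2) minus N2, -0.48 as reported, ran from -0.71 to -0.20. That of the loxapine response in ser-5(vq1) minus N2, -0.21 as reported, was -0.05 with the library series block and 0.21 without the libraries numbered 25 to 31. It ran from -0.29 to 0.11 when 1 library was left out. It was above 0 without replicate 2 of ser-5(vq1) with DMSO (0.05), replicate 2 of N2 with loxapine (0.11) or replicate 3 of N2 with loxapine (0.05), and -0.03 without replicate 3 of ser-5(vq1) with DMSO. The causes were not tested. Over the alternatives the log2 difference of dod-24 in N2 stayed between 1.79 and 2.50 with serotonin and between 2.37 and 2.80 with loxapine, and that of F08G5.6 with loxapine between 0.62 and 2.15. No called difference of a single gene changed sign. Over the alternatives the number of genes called in the whole table was 3509 to 7659 for serotonin in N2 (6102 as reported), 339 to 5275 for loxapine in N2 (3101), 0 to 10 for serotonin in ser-7(vq2) (0) and 3 to 12 for loxapine in ser-5(vq1) (8). At the depth reached, dod-21 allows no comparison, and dod-17, with 22 to 109 counts per library, allows a coarse one.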
